A study of Mus musculus with 12 samples.

Results

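The transcription factor p53, encoded by Trp53, and 7 of its best known transcriptional targets (Cdkn1a, Mdm2, Trp53inp1, Ccng1, Phlda3, Eda2r and Zmat3) were followed in mouse TH2 and TH1 cells with and without the integrin subunit αv, which is encoded by Itgav. The 8 genes are 8 of the 26202 gene symbols in the expression table. The list names p53 and some of its targets, with apoptosis effectors left out. No measured value enters its rule, although it was drawn up with earlier results of these data known. RNA-seq libraries were made from CD4+ T cells in 4 groups of 3: TH2 Itgav KO, TH2 control, TH1 Itgav KO and TH1 control. All mice carried a Cre recombinase that is activated by tamoxifen and driven by Cd4 (Cd4-CreERT2). The KO mice carried a floxed Itgav allele in addition (Itgav iCD4KO), and the controls did not. Naïve CD4+ cells of the spleen were stimulated through CD3 and CD28 with IL-2 for 5 days, either with IL-4 and an antibody to IFN-γ (TH2) or with IL-12 and an antibody to IL-4 (TH1), and live CD4+ cells were then sorted. Neither the drug treatment of the sequenced cultures nor a gate on αv is given in the sources used here, so KO libraries may hold cells that kept the gene. The labels number the libraries and give neither mouse nor culture for them, so the p-values refer to the spread between libraries, some of which may be technical.

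In unstressed cells p53 is kept low mainly by its breakdown, which the ubiquitin ligase Mdm2 sets off. DNA damage, oncogene activity or disturbed ribosome assembly stabilises the protein, which then binds pairs of similar decamers in promoters and first introns and turns on genes of cell cycle arrest, repair and its own feedback. Activated T cells divide rapidly, and p53 is known to restrain their expansion. As p53 is controlled largely at the protein level, the mRNA level of Trp53 is not a readout of p53 activity, and its target transcripts are the usual one.

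Promoter sequence in RefSeq (GRCm38.p6, 250 bases before to 50 bases after each start) was given for 6 of the 8 genes, in 7 windows, since Cdkn1a has 2 starts. The p53 consensus, which is 2 decamers side by side and is its own reverse complement, was searched by name with a count of mismatches. The search covers both strands and matches can overlap. A match with at most 1 mismatch was found in 29 of 32851 promoter windows (0.0883%), and those of Ccng1 and of the upstream Cdkn1a start were among them. These are printed because they show what a close match to the p53 element looks like in 2 of the genes, with the match in capitals and written 5′ to 3′ on the strand of the gene.
Ccng1 (chr11:40755442-40755501, minus strand): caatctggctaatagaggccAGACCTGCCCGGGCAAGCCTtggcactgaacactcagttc
Cdkn1a (chr17:29090908-29090967, plus strand): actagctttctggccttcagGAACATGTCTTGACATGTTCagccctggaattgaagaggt
The Ccng1 match lies at positions -195 to -176 from the start and the Cdkn1a match at -51 to -32. The best match had 3 mismatches in the Trp53 window, 5 in those of Mdm2, Phlda3 and the downstream Cdkn1a start, and 6 in that of Eda2r. A window at that distance from the consensus says nothing on p53 binding elsewhere in the gene. Known elements of p53 targets often lie in introns, which were not searched.

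In the GRCm38 annotation all 8 are protein-coding genes, and values are read counts over their transcripts. Trp53 lies at chr11:69580359-69591873 (plus strand) and Ccng1 at chr11:40748552-40755311 (minus). Cdkn1a lies at chr17:29090976-29100727 (plus), Mdm2 at chr10:117688875-117710758 (minus) and Trp53inp1 at chr4:11156431-11174379 (plus). Phlda3 is at chr1:135766119-135769136 (plus), Zmat3 at chr3:32334792-32366014 (minus) and Eda2r at chrX:97333840-97377216 (minus). None shares a chromosome with Itgav, at chr2:83724397-83806916 (plus).

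Depth, recovered from the steps between low values, was 6344186 to 13312234 reads per library, so that 3 reads corresponded to 0.225 to 0.473 CPM, the reads of a gene scaled to a fixed library total. Itgav averaged 53 ± 8.68 CPM in TH2 Itgav KO cells and 252 ± 59.3 CPM in TH2 control cells (SD, n = 3 each), and 30.7 ± 11 CPM in TH1 Itgav KO cells and 203 ± 42.4 CPM in TH1 control cells. TH2 cells thus kept 21% and TH1 cells 15.1% of the control level. Cd4 was at 2041 to 3521 CPM in all libraries. Gata3, the TH2 transcription factor, was at 660 to 831 CPM in all 6 TH2 libraries and at 9.31 to 28.5 CPM in the TH1 libraries, and Ifng reached 4288 to 9985 CPM in the TH1 libraries against at most 23.3 CPM in the TH2 libraries. Of 5 B cell markers, Cd79b alone passed 1 CPM in TH2 Itgav KO cells. Their sum was 9.15 to 12 CPM there against 3.75 to 7.12 CPM in TH2 control cells, with Ms4a1 and Pax5 at 0 in all 3 KO libraries. Their part in the results was not tested. Myeloid, mast cell and erythroid marker sums stayed at or below 6.05 CPM in each library, and those of NK and CD8 T cells, nearly all from Cd8b1, at 3.44 to 17.7 CPM, with Ncr1 and Klrb1c at 0 throughout. Ribosomal Rn45s took 5.84% of the reads of TH2 control library 1 and at most 2.30% in the others.

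Trp53 mRNA did not pass the test in any comparison. It was measured at 134, 62.9 and 136 CPM in the 3 TH2 Itgav KO libraries, against 136, 141 and 119 CPM in TH2 control libraries. It was at 180, 125 and 154 CPM in TH1 Itgav KO libraries, against 127, 164 and 147 CPM in TH1 control libraries. The groups overlapped in both subsets, and TH2 Itgav KO library 2, which is also the shallowest of the 12, stood below all others. On the log2(CPM + 1) scale the KO difference was -0.33 ± 0.23 in TH2 cells (SE, 95% interval -0.82 to 0.16, adjusted p = 0.482 by limma) and 0.06 ± 0.23 in TH1 cells (adjusted p = 0.976). Without TH2 Itgav KO library 2 the TH2 difference was 0.03. The other 2 genes of the p53 family were scarce: Trp63 was listed at 0 in all 12 libraries, and Trp73 was at 1.5 to 5.90 CPM in the TH1 libraries and at most 0.138 CPM in the TH2 libraries.

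Cdkn1a, which encodes the cyclin-dependent kinase inhibitor p21 and carries out the arrest of the cell cycle by p53, was the most abundant of the 8 per length of transcript. It was at 1133, 1125 and 724 CPM in TH2 Itgav KO libraries, against 1269, 990 and 1163 CPM in TH2 control libraries. The TH1 Itgav KO libraries held 822, 833 and 1084 CPM, against 738, 929 and 865 CPM in TH1 control libraries. KO and control groups overlapped in both subsets, with TH2 Itgav KO library 3 the lowest of all 12. The KO difference was -0.22 ± 0.16 in TH2 cells (95% interval -0.56 to 0.11, adjusted p = 0.489 by limma) and 0.11 ± 0.16 in TH1 cells (95% interval -0.23 to 0.44, adjusted p = 0.899).

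Mdm2, the ligase that marks p53 for breakdown and is itself induced by it, was at 354, 232 and 351 CPM in TH2 Itgav KO libraries, against 328, 410 and 395 CPM in TH2 control libraries. In TH1 cells it was at 297, 327 and 299 CPM in KO libraries, against 407, 397 and 373 CPM in control libraries. The TH1 groups did not overlap and the TH2 groups did. The difference was -0.29 ± 0.15 in TH2 cells (adjusted p = 0.308 by limma) and -0.35 ± 0.15 in TH1 cells (adjusted p = 0.433), so neither passed.

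Ccng1 encodes cyclin G1, which brings the phosphatase PP2A to Mdm2 and so belongs to the same feedback. It was at 710, 801 and 793 CPM in TH2 Itgav KO libraries, against 1007, 970 and 990 CPM in TH2 control libraries. In TH1 Itgav KO libraries it was at 513, 466 and 483 CPM, against 775, 741 and 737 CPM in TH1 control libraries. Every KO library was below every control library of its subset, and the libraries within a group lay close together. KO cells held 77.6% of the control level in TH2 and 64.9% in TH1 conditions. Ccng1 fell by 0.62 ± 0.11 on the log2 scale in TH1 Itgav KO cells (95% interval -0.85 to -0.40, adjusted p = 0.00347 by limma). In TH2 Itgav KO cells the difference of -0.37 ± 0.11 (95% interval -0.59 to -0.14) missed the threshold with an adjusted p of 0.0599. The TH1 call held with each of the 6 TH1 libraries left out (adjusted p 0.00929 to 0.0385) and was lost in limma fitted with no variance trend (adjusted p = 0.136).

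Zmat3, an RNA-binding zinc finger protein, had 292, 232 and 263 CPM in TH2 Itgav KO libraries, against 423, 404 and 322 CPM in TH2 control libraries. It had 143, 122 and 171 CPM in TH1 Itgav KO libraries, against 184, 232 and 205 CPM in TH1 control libraries. The groups did not overlap in either subset, with KO means at 68.4% (TH2) and 70.3% (TH1) of control. The difference of -0.54 ± 0.16 in TH2 cells had an adjusted p of 0.0669 and that of -0.51 ± 0.16 in TH1 cells one of 0.164 (limma), so Zmat3 was not called in either subset alone. Without TH2 control library 3 the TH2 difference was -0.66 and passed (adjusted p = 0.0404).

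**Figure D1:**
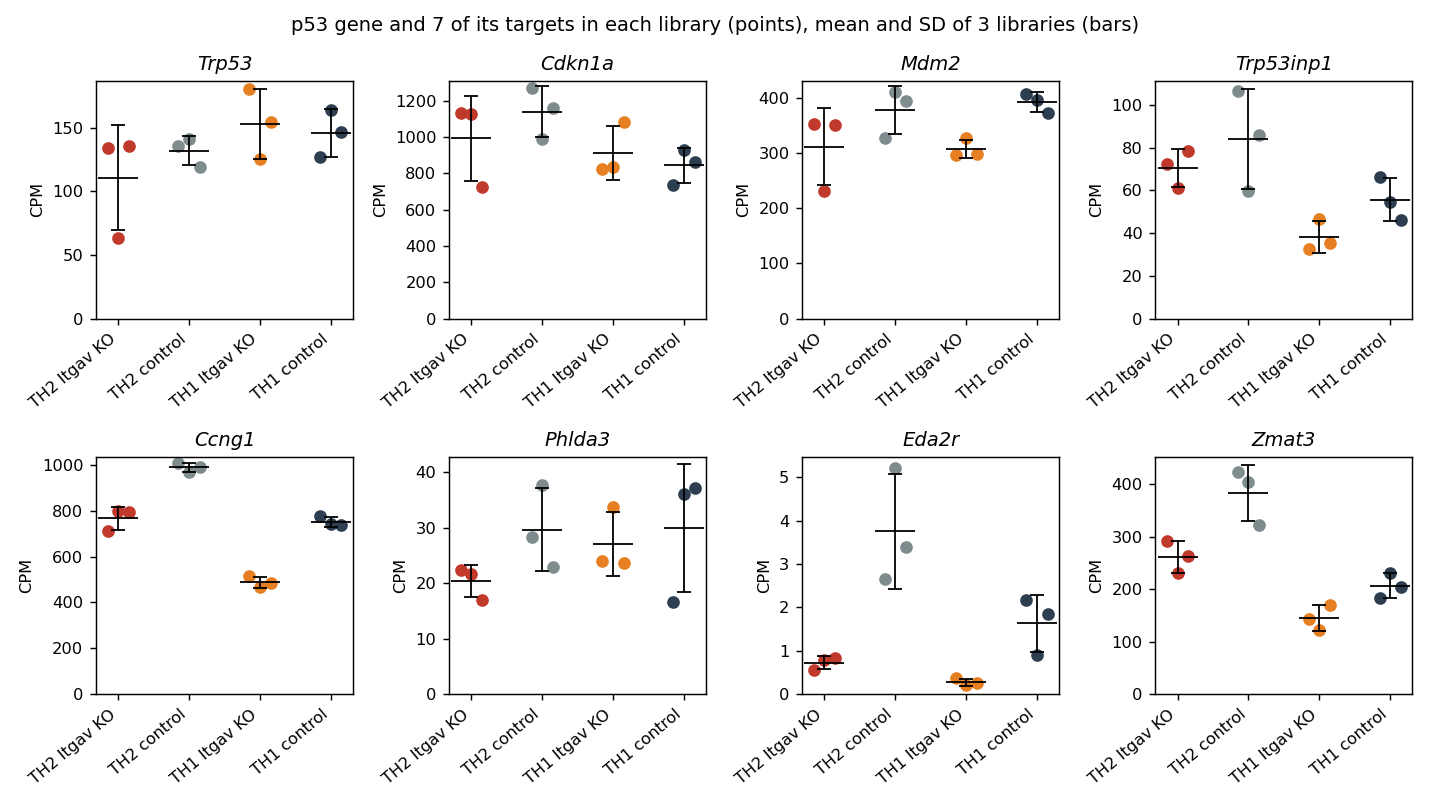
Levels of Trp53 and 7 p53 targets in CPM (vertical axes, from 0) in each of the 12 libraries, with the mean and SD of 3 libraries per group. The Ccng1 and Zmat3 points of the KO groups lie below all points of their control groups in both subsets, whereas the Trp53 and Cdkn1a points overlap.

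Trp53inp1 encodes a stress-induced nuclear protein that aids the phosphorylation of p53. It was at 72.6, 61.0 and 78.5 CPM in TH2 Itgav KO libraries, against 107, 59.8 and 85.7 CPM in TH2 control libraries. In TH1 Itgav KO libraries it was at 32.6, 46.6 and 35.2 CPM, against 66.4, 54.5 and 46.2 CPM in TH1 control libraries. The groups overlapped in both subsets, in TH1 cells by KO library 2 and control library 3 only. The differences of -0.22 ± 0.25 and -0.54 ± 0.25 in TH2 and TH1 cells had adjusted p-values of 0.691 and 0.464 (limma).

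Phlda3, whose protein competes with Akt for membrane lipids, was at 22.4, 21.8 and 17.1 CPM in TH2 Itgav KO libraries, against 28.3, 37.7 and 23.0 CPM in TH2 control libraries. The groups did not overlap, although the highest KO and the lowest control library were close. In TH1 cells it was at 23.9, 33.8 and 23.6 CPM in KO libraries, against 16.6, 36.1 and 37.3 CPM in control libraries, which overlapped. Its differences of -0.50 ± 0.35 in TH2 cells (adjusted p = 0.461 by limma) and -0.07 ± 0.35 in TH1 cells (adjusted p = 0.981) did not pass, and their SE was the largest among the 7 genes tested.

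Eda2r, a receptor of the TNF receptor family for the ligand ectodysplasin A2, was the scarcest of the 8. It was at 0.554, 0.788 and 0.826 CPM in TH2 Itgav KO libraries, against 2.65, 5.22 and 3.39 CPM in TH2 control libraries. These values stood for 5 to 6 reads per KO library and 25 to 46 reads per control library. In TH1 cells it was at 0.364, 0.203 and 0.268 CPM in KO libraries, from 2 to 4 reads each, against 2.17, 0.901 and 1.85 CPM in control libraries, from 12 to 21 reads each. The groups did not overlap in either subset. Pooled over the libraries, the KO level was 18.7% of control in TH2 cells (exact 95% interval 10.5 to 31.4%, 17 and 102 reads) and 18.3% in TH1 cells (7.89 to 37.5%, 9 and 50 reads). These intervals cover counting error only. Eda2r is X-linked, and all 12 libraries had the Y-linked Ddx3y at 18.8 to 106 CPM and Xist at 1.58 CPM or less, so they matched in sex by these genes.

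Eda2r did not reach the level at which genes were tested (10 CPM in at least 3 libraries), which the other 7 did. A minimum of 1 CPM would admit it through the control libraries alone, so no test is read from that fit. In limma with no filter, its difference was -1.43 in TH2 cells (adjusted p = 0.0596) and -1.01 in TH1 cells (adjusted p = 0.301). At so low a level these log2 values understate the difference in CPM.

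Counted over the set, TH2 Itgav KO cells had negative differences in 7 of the 7 genes tested, with a median of -0.328 on the log2 scale, against a median of 0.0351 over all 9121 genes tested, of which 46.6% were negative. None of the 7 was called by limma, where 1.67% of all genes were called lower, and 2 of the 7 (Ccng1 and Zmat3) had an unadjusted p below 0.05, as had 19.1% of all genes. limma voom on the recovered reads called Ccng1 alone (adjusted p = 0.0425). Ccng1, Zmat3 and Phlda3 did not overlap between groups, and neither did 8.76% of all genes in the lower direction. In TH1 Itgav KO cells 5 of 7 differences were negative, with a median of -0.351 against 0 over all genes, and 4 of 7 (Ccng1, Zmat3, Mdm2 and Trp53inp1) had an unadjusted p below 0.05, against 10.1% of all genes. Ccng1 was the 1 member called there, where 0.515% of genes were called lower. Ccng1, Zmat3 and Mdm2 did not overlap between the TH1 groups, against 10.6% of all genes in that direction. Ccng1 and Zmat3 were below control without overlap in both subsets, as were 1.74% of all genes tested.

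With the KO effect averaged over both subsets, a comparison that was added after the data were seen, Ccng1 fell by 0.50 ± 0.08 on the log2 scale (95% interval -0.65 to -0.34, adjusted p = 0.000515 by limma). Zmat3 fell by 0.53 ± 0.11 (95% interval -0.77 to -0.29, adjusted p = 0.0114). Of all genes 2.04% were called lower in this comparison. Mdm2 (-0.32 ± 0.11, adjusted p = 0.107), Trp53inp1 (-0.38, adjusted p = 0.266), Phlda3 (-0.29, adjusted p = 0.595), Trp53 (-0.13, adjusted p = 0.735) and Cdkn1a (-0.06 ± 0.11, adjusted p = 0.845) were not called. The Ccng1 call held in all 21 alternative settings, whereas that of Zmat3 held in 19 and was lost without a filter on low values (adjusted p = 0.0554) and without the variance trend (adjusted p = 0.0850). In bulk RNA, fewer cells that express a gene and less of its RNA per cell cannot be told apart.

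**Figure D2:**
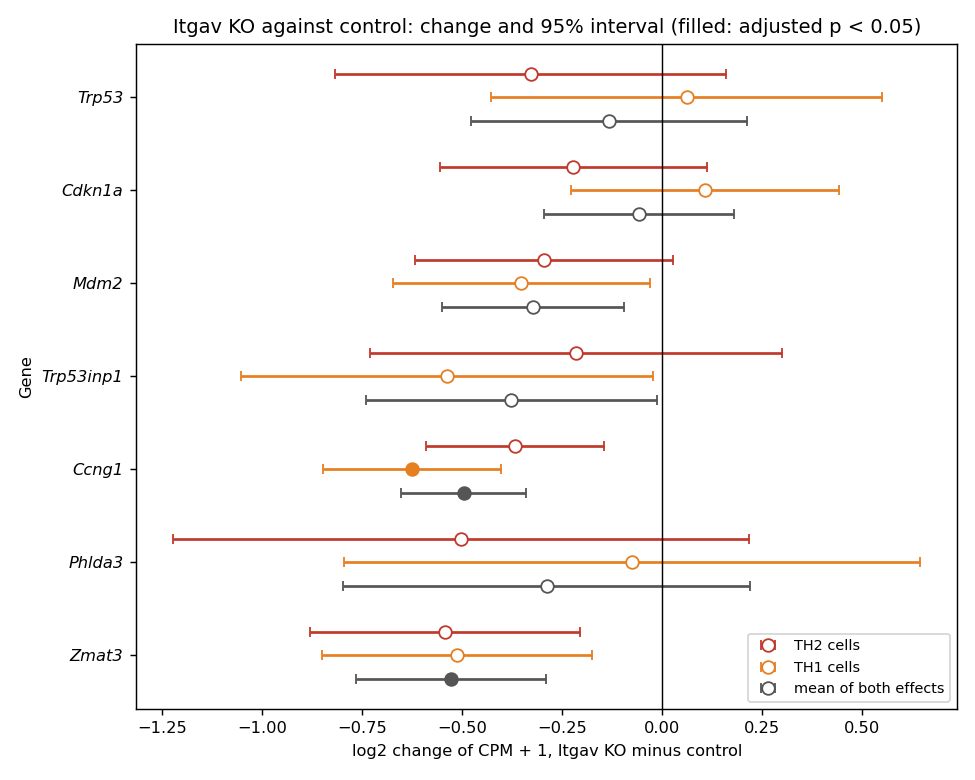
Difference of log2(CPM + 1), Itgav KO minus control, for each gene in TH2 cells, in TH1 cells and as the mean of both effects, with 95% intervals from limma. Filled points passed an adjusted p of 0.05, which Ccng1 did in TH1 cells and in the mean and Zmat3 in the mean. Eda2r is left out because it was below the level at which genes were tested.

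None of the 7 genes tested differed in its KO effect between the subsets by the test of the interaction. That test called 37 of all 9121 genes, with 0.143% of all genes called lower. None of the 7 had an unadjusted p below 0.05, against 11% of all genes, and voom called none of them. For Ccng1 the TH2 effect minus the TH1 effect was 0.26 (95% interval -0.06 to 0.57, adjusted p = 0.553 by limma). It was -0.03 for Zmat3 (-0.51 to 0.45), -0.33 for Cdkn1a (-0.80 to 0.14) and -0.39 for Trp53 (-1.08 to 0.30). Differences between the subsets as large as the TH1 effect on Ccng1 itself lie within the intervals of Cdkn1a and Trp53.

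The subsets differed from each other in part of the set. Zmat3 was 0.88 ± 0.16 higher on the log2 scale in TH2 than in TH1 control cells (adjusted p = 0.00041 by limma) and 0.85 ± 0.16 higher in TH2 than in TH1 Itgav KO cells (adjusted p = 0.000508). Ccng1 was higher by 0.40 ± 0.11 in the control cells (adjusted p = 0.0114) and by 0.65 ± 0.11 in the KO cells (adjusted p = 0.000102). Trp53inp1 was higher by 0.88 ± 0.25 in TH2 Itgav KO cells (adjusted p = 0.0125), a call lost without TH1 Itgav KO library 1 (adjusted p = 0.0553), and the control difference of 0.56 ± 0.25 did not pass (adjusted p = 0.128).

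For all genes, the share called in the same tests was 8.58% higher and 9.75% lower for TH2 against TH1 control cells, and 12.2% higher and 11.6% lower for TH2 against TH1 Itgav KO cells. Ccng1 lost its control call without the variance trend (adjusted p = 0.0978). Cdkn1a had a difference of 0.43 ± 0.16 in control cells that missed the threshold (adjusted p = 0.0672) and passed in 4 of 16 alternatives, with quantile scaling the lowest (adjusted p = 0.0237). Its difference in KO cells was 0.10 ± 0.16 (adjusted p = 0.697). Trp53 ran the other way, at -0.14 ± 0.23 in control and -0.53 ± 0.23 in KO cells (adjusted p = 0.740 and 0.110), and the difference in KO cells passed only without TH2 Itgav KO library 3 (adjusted p = 0.0468). Mdm2 had differences of -0.06 (95% interval -0.38 to 0.26) in control cells and -0.0043 (-0.33 to 0.32) in KO cells. The subset comparisons use the same libraries as the KO comparisons and are not independent of them.

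**Figure D3:**
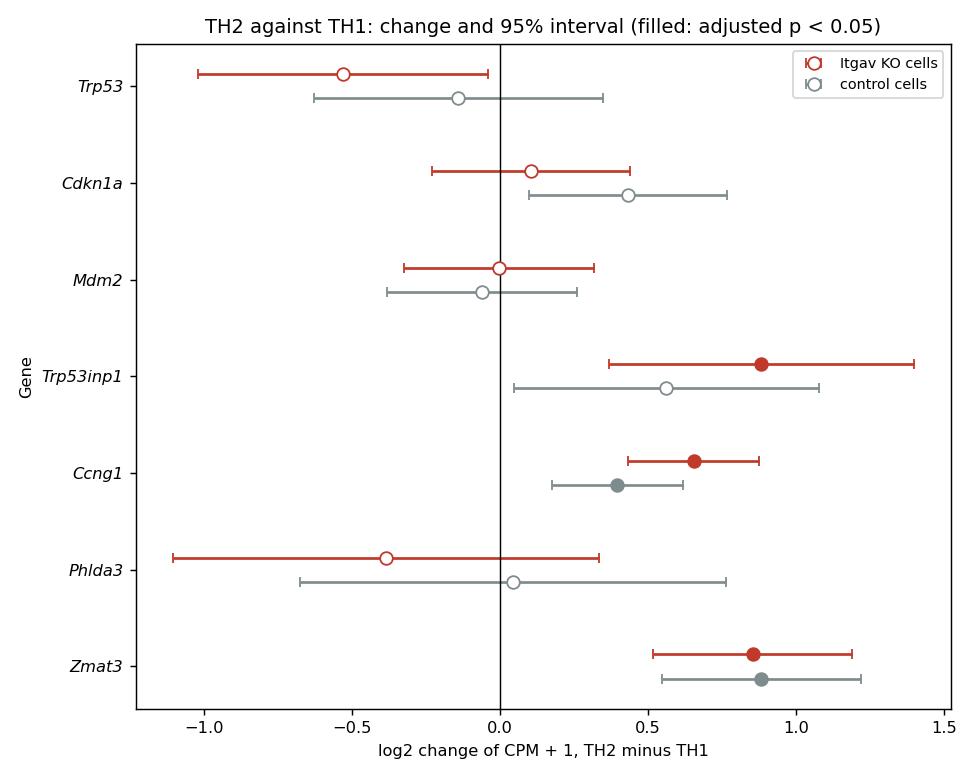
Difference of log2(CPM + 1), TH2 minus TH1, in Itgav KO cells and in control cells, with 95% intervals from limma and filled points past an adjusted p of 0.05. Zmat3 and Ccng1 were higher in TH2 cells of both genotypes and Trp53inp1 in those of the KO, and the intervals of Trp53 and Mdm2 in control cells span 0.

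Divided by the summed exon length (CPM per kb), Cdkn1a and Ccng1 led in every group. Cdkn1a averaged 280 ± 65.9 CPM per kb in TH2 Itgav KO and 321 ± 39.6 in TH2 control cells, and 257 ± 41.6 in TH1 Itgav KO and 238 ± 27.4 in TH1 control cells (SD, n = 3 each). Ccng1 averaged 219 ± 14.3 CPM per kb in TH2 Itgav KO and 282 ± 5.36 in TH2 control cells, and 139 ± 6.78 in TH1 Itgav KO and 214 ± 5.94 in TH1 control cells. Their libraries overlapped in 3 groups and were separate in TH1 Itgav KO cells, where Ccng1 was lowest. Mdm2 followed at 60.49 to 77.2 CPM per kb in the group means, apart from its neighbours in all 4 groups. Trp53 was at 27.4 to 37.9. In TH2 cells it overlapped with Zmat3 (22.9 in KO and 33.5 in control cells), which had the higher mean in control cells. In TH1 cells Trp53 came next after Mdm2, and Zmat3 (12.7 and 18.1) was below it. Phlda3 was at 13.1 to 19.2, Trp53inp1 at 5.89 to 13.0 and Eda2r at 0.0472 to 0.638 CPM per kb. Reads of Cdkn1a could include those of an unclassified transcript on the opposite strand that overlaps its exons, since the counting was not stated to use strand.

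The wider p53 network was summarised from named lists. Of 28 other p53 targets not listed as apoptosis effectors 22 were tested, and limma and voom called none in either KO comparison or in their mean. An unadjusted p below 0.05 was found for 3 of them in TH2 cells, 2 in TH1 cells and 3 in the mean, against 19.1%, 10.1% and 17.4% of all genes. Their median was 0.00145 in TH2 Itgav KO cells, with 11 negative, and -0.275 in TH1 Itgav KO cells, with 14 negative. The most abundant of them, Pml, the organiser of a nuclear body, had differences of 0.27 ± 0.17 and 0.35 ± 0.17 in TH2 and TH1 cells (adjusted p = 0.412 and 0.515, limma), and those of Psrc1 were 0.05 and 0.00.

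Of 9 p53 targets that promote apoptosis all were tested, and 1 was called lower in TH1 Itgav KO cells, as were 0.515% of all genes. An unadjusted p below 0.05 was found for 3 of the 9 in TH2 cells and 2 in TH1 cells, against 19.1% and 10.1% of all genes. Perp, a membrane protein of cell junctions, was at 74.5, 86.1 and 103 CPM in TH1 Itgav KO libraries, against 208, 254 and 246 CPM in TH1 control libraries. It fell by 1.42 ± 0.25 on the log2 scale (adjusted p = 0.00383 by limma), a call lost without TH1 control library 2 (adjusted p = 0.0565). In the mean of both KO effects, where 2.04% of all genes were called lower, it fell by 1.01 ± 0.17 (adjusted p = 0.00208 by limma). That call held in all 21 alternatives. In TH2 cells it was far lower, at 9.30 to 13.6 CPM in KO libraries against 14.9 to 20.4 CPM in control libraries, with a difference of -0.59 ± 0.25 that did not pass (adjusted p = 0.195). Bax, which permeabilises mitochondria, had a difference of 0.44 ± 0.18 in TH2 Itgav KO cells (adjusted p = 0.190). The list had a median of -0.0704 in TH2 and -0.0367 in TH1 cells.

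Of 22 regulators of p53, 18 were tested and none was called by limma or voom in either subset, where 1 each had an unadjusted p below 0.05 (19.1% and 10.1% of all genes), with medians of 0.0876 and 0.0701 in TH2 and TH1 cells. Huwe1, a ubiquitin ligase with p53 among its substrates, fell by 0.39 ± 0.11 in the mean of both KO effects (adjusted p = 0.0429 by limma), which passed in 10 of 21 alternatives (adjusted p 0.0156 to 0.208). Of all genes 2.04% were called lower in that mean. Ep300, the acetyltransferase p300, had differences of 0.06 and -0.02 in TH2 and TH1 cells. Cdkn1b, the inhibitor p27 and the 1 relative of p21 that was tested, had differences of 0.37 ± 0.31 and 0.61 ± 0.31 (adjusted p = 0.569 and 0.537).

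Downstream of p21, the DREAM complex represses genes of the later cell cycle. All 12 such genes listed were tested. limma called none in a KO comparison, with 5 at an unadjusted p below 0.05 in TH2 cells and 3 in TH1 cells (19.1% and 10.1% of all genes), and voom called Ccna2 in TH1 cells (adjusted p = 0.0320). Of the differences, 11 of 12 were negative in TH2 cells (median -0.381) and 1 of 12 in TH1 cells (median 0.432), against 46.6% and 50.0% of all genes. The TH2 effect minus the TH1 effect was negative in 12 of 12, against 47% of all genes. Its median was -0.672, against 0.0437 over all genes. In this comparison, where 0.143% of all genes were called lower, only Ccna2, which encodes cyclin A2, was called. Its difference was -1.06 ± 0.22 (adjusted p = 0.0390 by limma). That call held in 6 of 21 alternatives (adjusted p 0.0332 to 0.206) and was lost on leaving out any 1 library other than TH2 control library 2. Ccna2 was at 139, 143 and 116 CPM in TH2 Itgav KO libraries, against 194, 155 and 199 CPM in TH2 control libraries. In TH1 Itgav KO libraries it was at 307, 234 and 264 CPM, against 167, 171 and 188 CPM in TH1 control libraries. KO libraries were thus below control without overlap in TH2 cells, as were 8.76% of all genes. In TH1 cells they were above control without overlap. The share of all genes in that direction is not given here, and 10.6% lay below control without overlap in TH1 cells. Ccna2 was picked by its call in these same libraries, so its lack of overlap adds no separate support. The 12 DREAM genes share the cell cycle as a source, so they are not independent of each other.

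**Figure D4:**
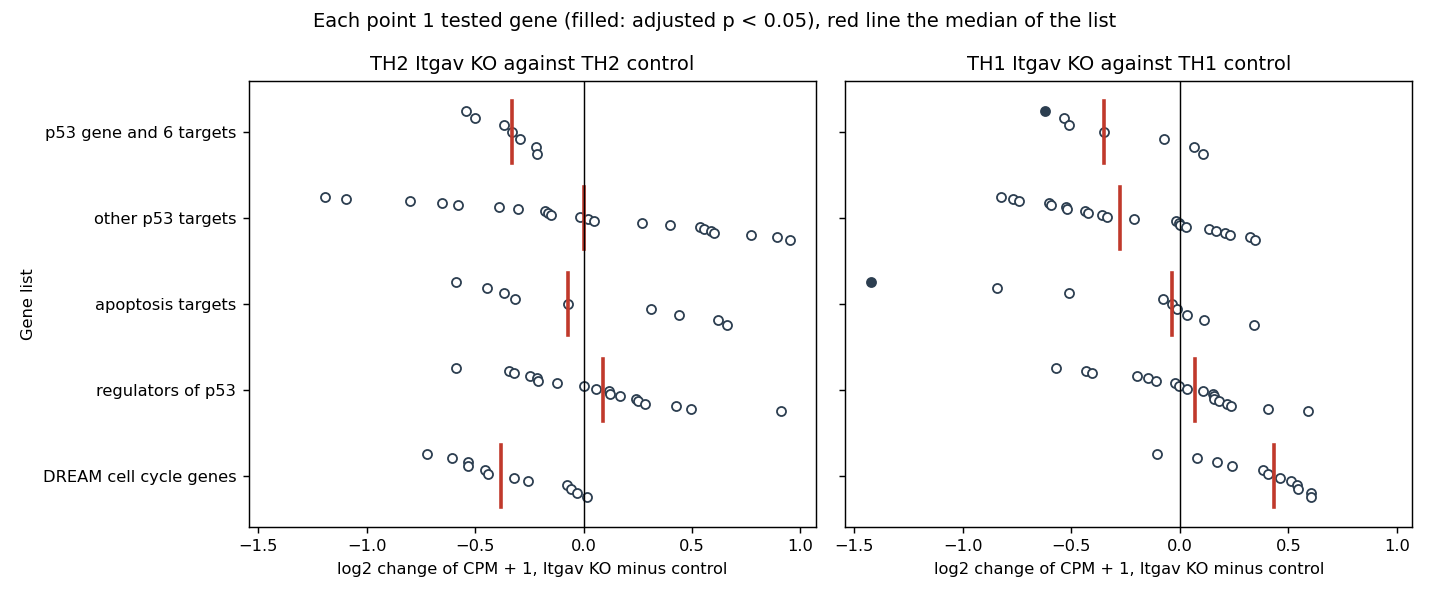
Difference of log2(CPM + 1), Itgav KO minus control, of each tested gene (points) in TH2 cells (left) and TH1 cells (right), by list, with the median of the list as a red line and filled points past an adjusted p of 0.05. Ccng1 and Perp are filled in TH1 cells and no point is filled in TH2 cells, and the median of the DREAM genes lies at -0.381 in TH2 and 0.432 in TH1 cells.

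Between the subsets the lists held larger differences. Among other p53 targets 4 were called higher and 1 lower in TH2 than in TH1 control cells, and 5 higher and 1 lower in the KO cells, of 22 tested. Over all genes these shares were 8.58% and 9.75% in control and 12.2% and 11.6% in KO cells, which also stand against the counts of the other lists. Gadd45a, a sensor of growth arrest and DNA damage, was higher by 3.42 ± 0.42 in TH2 than in TH1 control cells and by 3.94 ± 0.42 in the KO cells (adjusted p = 2.77e-06 and 3.51e-07 by limma). The lincRNA gene Trp53cor1 was higher by 2.06 in control cells and Pvt1, a noncoding RNA gene, was lower there (-1.99). The Trp53cor1 call was lost without TH1 control library 3 (adjusted p = 0.154) or TH2 control library 2 (adjusted p = 0.0996). It was also lost with no filter (adjusted p = 0.0984 by limma) and with no variance trend (adjusted p = 0.0589). The kinase gene Plk2 was higher by 2.49 and the glutaminase gene Gls2 by 2.05 in the KO cells.

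Of the 9 apoptosis targets, Perp (-3.63), Pmaip1 (-2.02), which encodes Noxa, and the death receptor gene Fas (-1.61) were lower in TH2 than in TH1 control cells, and Perp (-2.80) and Pmaip1 (-1.69) in the KO cells. The Pmaip1 call in control cells was lost without TH1 control library 3 or TH2 control library 1 (adjusted p = 0.0632 and 0.0563). This call was also lost with no filter or no variance trend (adjusted p = 0.0818 and 0.0569 by limma). That in the KO cells held in 9 of 16 alternatives, and TH2 Itgav KO library 3, at 46.7 CPM, lay within the TH1 range. Among regulators, Hipk2, a kinase that phosphorylates p53, was higher by 2.23 ± 0.21 in control and 2.08 ± 0.21 in KO cells. Trim24, a ubiquitin ligase for p53, was higher by 0.72 in control and 0.79 in KO cells. Its control call was lost without TH1 control library 2 or TH2 control library 3 (adjusted p = 0.0602 and 0.0803). It was also lost with no variance trend (adjusted p = 0.0556 by limma). Trp53bp1, whose product binds p53 and broken DNA, was higher by 1.12 in the KO cells, a call that held in 6 of 16 alternatives. Of the 12 DREAM genes 1 was called lower in TH2 than in TH1 control cells (Birc5, survivin, -0.68, held in 6 of 16 alternatives) and 6 in the KO cells, led by Birc5 (-1.59), Ccnb2 (-1.04) and Ccna2 (-1.01).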

How the data were processed

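RNA of 12 samples was amplified to cDNA (Ovation RNA-seq System V2). The authors used Trim Galore 0.50 for trimming of single-end reads, STAR 2.6.0a for alignment (GRCm38) and DESeq2 1.18.1. For the counter and the gene annotation, nothing is stated in the sources used here. Values were deposited by the authors as CPM with 0.0001 added to each, which was taken off. CPM are shares of a library, so an abundant transcript lowers all others in it, and amplification can distort low levels such as those of Eda2r.

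All values up to 1000 reads were whole multiples of 1 read within 0.1 reads, which gave the depth (6344186 to 13312234 reads). Chi-square per degree of freedom between replicates was 18.5 to 76.3, so none was a library deposited again.

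limma 3.58.1 in R 4.3.3 with a variance trend was fitted to log2(CPM + 1) of the 9121 genes that reached 10 CPM in at least 3 libraries, with 4 group means over all 12 libraries (8 residual, 12.5 prior degrees of freedom). All tests were two-sided, with Benjamini-Hochberg adjustment over all genes tested and 0.05 as the threshold. "Called" means past it. The steps were tested on simulated data. Alternatives were pseudocounts of 0.5 and 5, a 1 CPM or no filter, TMM or quantile scaling, only the groups compared, no variance trend, a replicate block and each library left out. The averaged KO effect and limma voom on recovered reads were chosen after seeing the data.

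The 8 genes and the lists were chosen with earlier results of these data known. From each list up to 3 called genes with the largest difference were named per comparison, or the 2 most abundant where none was called. Genes of the lists that are named beyond this rule repeat one of its comparisons. Coordinates and exon lengths are from GENCODE M21 (GRCm38) and promoters from RefSeq (GRCm38.p6). Rfwd2 and Trac were not found under these symbols.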

Additional observations from a re-analysis of the deposited data

Results flagged for a closer look

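The KO effect on Ccna2 differed between the subsets by the test of that difference. The effect in TH2 minus that in TH1 was -1.06 on the log2 scale (95% interval -1.53 to -0.59, adjusted p = 0.0390 by limma), from -0.45 ± 0.16 in TH2 cells (adjusted p = 0.122) and 0.61 ± 0.16 in TH1 cells (adjusted p = 0.0792). It passed in 6 of 21 alternatives, with adjusted p-values of 0.0332 to 0.206, and in each the sign was the same. The KO libraries lay below control in TH2 cells and above it in TH1 cells in 3 of 3 libraries against all 3 controls in each subset. These are the libraries that gave the call, and 8.76% of all genes lay below control without overlap in TH2 cells. For TH1 cells the share of all genes above control without overlap is not given here, and 10.6% lay below it.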

How the results depend on the processing

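No called difference of the 8 genes changed sign in any alternative. Of 748 settings compared, 28 changed the sign of an uncalled difference. The largest of these was Trp53 in TH2 KO against control cells, at -0.33, which was 0.035 without TH2 Itgav KO library 2. With quantile scaling Mdm2 was at 0.026 and with voom at 0.024 in TH2 Itgav KO against TH1 Itgav KO cells, and with voom Phlda3 was at -0.047 in TH2 against TH1 control cells. The cause was not tested. With single libraries left out, uncalled differences that changed sign ranged as follows. In TH2 KO against control, Trp53 ranged over -0.51 to 0.035. In TH1 KO against control, Trp53 ranged over -0.061 to 0.20, Cdkn1a over -0.022 to 0.18 and Phlda3 over -0.44 to 0.12. In the mean KO effect, Trp53 ranged over -0.23 to 0.049 and Cdkn1a over -0.12 to 0.050. In the difference of the effects, Mdm2 ranged over -0.047 to 0.26 and Zmat3 over -0.15 to 0.093. In TH2 against TH1 KO cells, Cdkn1a ranged over -0.0051 to 0.32 and Mdm2 over -0.11 to 0.20. In TH2 against TH1 control cells, Mdm2 ranged over -0.12 to 0.037 and Phlda3 over -0.32 to 0.24.

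The number of the 7 genes called was 0 in TH2 KO against control cells and 1 with voom (0 to 1 with a library left out). It was 1 in TH1 KO against control cells, 0 without the variance trend, 2 with only the groups compared, where Zmat3 passed (adjusted p = 0.0497), and 1 with any library left out. It was 2 in the mean effect, 1 without the trend and 2 with any library left out. It was 2 between the control subsets, 1 without the trend and 2 to 4 with a library left out, with 4 reached without TH2 control library 2, where Cdkn1a (adjusted p = 0.0403) and Trp53inp1 (adjusted p = 0.0343) passed. It was 3 between the KO subsets and 2 to 4 with a library left out. Of 24 calls of named genes in the wider lists 15 held in every alternative and none changed sign. With no filter Eda2r had a mean effect of -1.22 (adjusted p = 0.0289 by limma). It rests on 2 to 6 reads per KO library, and no call is read from it. Nor is a test read from the 1 CPM fit, which admits the gene through the control libraries alone.

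Over all genes, 327 were called in TH2 KO against control cells, 141 with no filter, 76 without the trend, 125 with only those groups and 158 to 383 with a library left out. In TH1 cells 77 were called, 29 without the trend, 367 with only those groups, 157 with voom and 26 to 64 with a library left out. The difference of the effects had 37, with 2, 1 and 2 to 50 under no filter, no trend and libraries left out, and the mean effect 385, with 141, 130 and 179 to 432. Same-numbered libraries had correlations of -0.0657 to 0.0256 in their deviations, so no pairing by number was seen. With 3 libraries per group this cannot exclude that they share a mouse or culture. With the replicate block the calls among the 7 genes numbered 0, 1, 0, 2, 3 and 2 in TH2 KO, TH1 KO, the difference of the effects, control subsets, KO subsets and the mean, as without it, and all genes called for the difference of the effects numbered 17. The block also ended the calls of Ccna2 for that difference (adjusted p = 0.0639), of Birc5 between the control subsets (adjusted p = 0.0641) and of Trp53bp1 between the KO subsets (adjusted p = 0.0596). The planned edgeR and DESeq2 fits were not run, and voom stood in for them. The depth limits Eda2r most, at 2 to 6 reads per KO library.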

Other observations

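The genes whose log2(CPM + 1) followed Cdkn1a most closely over the 12 libraries were H1f4, a linker histone gene (Pearson r = 0.918), Cct7, of the chaperonin complex (0.877), and Gstp3 (0.869). For Trp53 they were Rnf44 (0.916), Ptges3, which encodes the co-chaperone p23 (0.896), and L3mbtl2 (0.892). These are the highest values among 9121 genes and are given as a description, since all points share the same libraries and groups.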
